A study of Mus musculus with 4 samples.

Results

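Methylated Pontin peaks were examined at 10 genes. They encode subunits of AMPK (Prkaa1, Prkaa2, Prkab1, Prkab2, Prkag1 and Prkag2) and the AMPK-activating kinase LKB1 (Stk11). They also encode the transcription factors FOXO1 and FOXO3a (Foxo1 and Foxo3) and the F-box protein SKP2 (Skp2). The genes were taken by name from the GENCODE vM21 annotation, which holds 21755 protein-coding genes on the 20 chromosomes that carry a peak, whether or not they had a peak themselves. The experiment was chromatin immunoprecipitation with sequencing (ChIP-seq) in wild-type mouse embryonic fibroblasts (MEFs), with an antibody against arginine-methylated Pontin, a chromatin-remodelling ATPase. There were 4 libraries, namely the methylated Pontin ChIP and the non-immunoprecipitated chromatin (input), each from normal media and from glucose starvation. Each had 1 library and no replicate. All values below are from the peaks of the ChIP library under glucose starvation. Peaks of the normal-media ChIP were not analysed here, so no value below is a response to starvation, and no test between conditions could be made.

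AMPK is a kinase made of a catalytic alpha, a scaffold beta and a nucleotide-binding gamma subunit, and it is activated when cellular energy is low. LKB1 phosphorylates the alpha subunit. FOXO transcription factors act in the nucleus on genes of stress resistance, autophagy and metabolism, and AMPK can phosphorylate FOXO3a. SKP2 is the substrate receptor of an SCF ubiquitin ligase, and in nutrient-starved cells the AMPK and FOXO3a pathway has been linked to lower SKP2 and a more stable CARM1, the arginine methyltransferase that methylates Pontin.

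The list holds 4311 peaks, each 481 bp wide, from a library of 20765512 tags. Peak strength is given as tags per 10000000 tags of the library, with a percentile, which is the percent of all peaks that had fewer tags. The median peak had 14.2 tags per 10000000, which equals 29.5 tags, so intervals for single peaks are wide. They are exact 95% Poisson intervals and cover counting error only. Of 8 fibroblast marker genes, 3 (Vim, Thy1 and Fn1) had a peak centre at most 2.5 kb from a transcription start site (TSS), and of 6 markers of other cell types, 0 had one, against 17.2% of all protein-coding genes. The TSS nearest to the Fn1 peak is annotated to another gene, Apol7d. Lists of 8 and 6 genes are too short to read these counts as a check of the cell type, and a peak is not a measure of expression.

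A peak centre lay within 2.5 kb of a TSS at 4 of the 10 genes, Prkaa2, Prkab1, Prkag2 and Stk11. Over all protein-coding genes the share was 17.2%, or 3747 of 21755. By role, the 4 genes were 3 of the 6 AMPK subunit genes examined and Stk11, with 0 of the 2 FOXO genes and not Skp2. The 6 genes form 3 pairs of paralogues, and in each pair 1 gene had a peak. It was Prkaa2 for alpha, Prkab1 for beta and Prkag2 for gamma. The gamma subunit has a further gene, Prkag3, which is not among the 10. It had no peak within 2.5 kb of a TSS, and its nearest was 147 kb away. The 4 centres lay 196 to 367 bp from the nearest TSS, whereas the nearest gene without one, Prkaa1, was 27.1 kb from its nearest peak, so no gene lay near the 2.5 kb limit. Inside the gene body, 2 of 10 genes had a peak centre, Prkag2 and Stk11, against 11.4% of all protein-coding genes. Within 50 kb of a TSS, 7 of 10 genes had a peak centre, against 39.7% of all protein-coding genes.

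**Figure D1:**
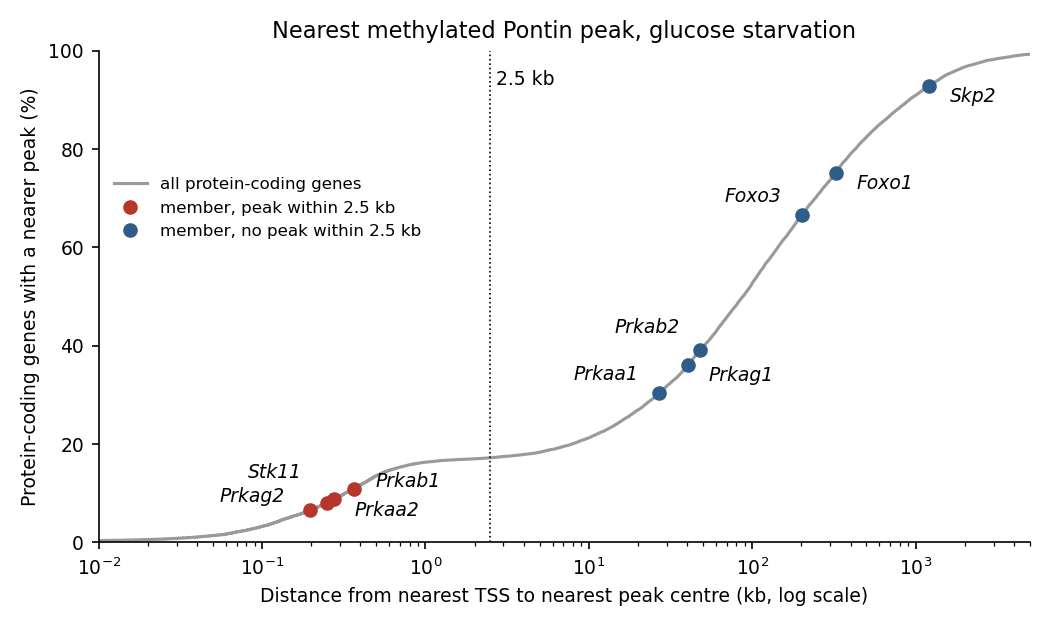
Distance from the nearest TSS of each gene to the nearest peak centre (x axis, kb, log scale) against the percent of protein-coding genes with a nearer peak (y axis). The grey curve is all protein-coding genes, red points are the 4 genes whose peak is within 2.5 kb and blue points are the 6 without. The points fall in 3 sets, with 4 genes below 0.4 kb, 3 between 27.1 and 48.1 kb, and 3 beyond 200 kb.

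The share of genes with a peak differed with the number of annotated TSSs and with the CpG content of the 5′ end. These features were not separated from each other or from gene length. Among genes with 1 annotated TSS, 6.31% had a peak within 2.5 kb, against 27.1% of genes with 5 or more TSSs and 31.5% of those with 10 or more. Prkaa2 had 1 TSS, Stk11 had 8, Prkab1 had 9 and Prkag2 had 10. Of the 6 genes without a peak, Foxo1 had 1 TSS, Prkaa1 had 2, Foxo3 and Skp2 had 5 each, and Prkab2 and Prkag1 had 6 each. Of the genes with 30 or more CpG dinucleotides in the 500 bp around the 5′ end, 28.7% had a peak, and of those with fewer, 8.66%. Of the 10 genes, 9 had 30 or more CpG there (all but Skp2), and the 4 genes with a peak are among these 9, for which 28.7% is the nearer background. The part that these features have in the count of 4 genes was not tested.

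Sequences under the peaks are shown here for single genes only and do not stand for all the peaks. For Prkaa2 and Prkag2, the 200 bases centred on the peak are given 5′ to 3′ on the strand of the gene (GRCm38), with capitals marking GGGCGG or CCGCCC (the core of SP factor sites, on either strand). They are chr4:105110064-105110263 for Prkaa2 and chr5:24908605-24908804 for Prkag2, both on the minus strand.
Prkaa2: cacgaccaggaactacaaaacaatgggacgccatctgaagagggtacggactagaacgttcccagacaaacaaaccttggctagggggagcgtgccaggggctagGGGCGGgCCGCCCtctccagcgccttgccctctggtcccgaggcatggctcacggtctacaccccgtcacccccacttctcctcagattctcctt
Prkag2: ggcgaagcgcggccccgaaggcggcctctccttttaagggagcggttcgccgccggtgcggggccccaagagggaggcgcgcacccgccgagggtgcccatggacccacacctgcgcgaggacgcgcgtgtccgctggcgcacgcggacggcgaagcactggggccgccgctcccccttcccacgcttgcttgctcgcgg
The Prkaa2 centre holds an SP core in both orientations next to each other, 8 and 15 bp from the centre. The Prkag2 centre holds no SP core and is rich in G and C. The GC content of the whole peak was 73.8%, more than in 95.6% of peaks. For the Prkaa2 peak it was 61.75% (percentile 73.1), and the median of all peaks was 53.0%.

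Of the catalytic alpha subunits, Prkaa2 (ENSMUSG00000028518.8, chromosome 4, 105029874 to 105109890, minus strand) had a peak from 105109924 to 105110404. It lay wholly outside the gene, with its edges 514 and 34 bp upstream of the TSS and its centre 274 bp upstream. Its signal was 9.87 tags per 10000000 (20.5 tags, 95% interval 12.6 to 31.5), at percentile 4.66, and 201 peaks of the list had fewer tags. Its score, as HOMER gives it, was 18.5, against a lowest score of 18 in the list. By tag count it was thus among the weakest peaks, but its fold over input was 25.54, at percentile 88.1. Dividing the signal by the fold gives the input behind it, 0.386 tags per 10000000 at this peak against a median of 1.55, and 489 peaks (11.3%) had an input as low within 2%. A high fold here therefore stands beside an input near the lowest value in the list, 0.367. Against the surrounding 10 kb the fold was 4.74, at percentile 41.7. The authors' Poisson p-values were 3.09e-13 against the input and 3.52e-08 against the neighbouring 10 kb, and both compare tags within these libraries.

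Prkaa1 (ENSMUSG00000050697.9, chromosome 15, 5143861 to 5181899, plus strand), the other catalytic subunit, had no peak in its body or within 2.5 kb of a TSS. The nearest peak was 27.1 kb upstream, 78 bp from the TSS of Rpl37, a ribosomal protein gene, with 20.2 tags per 10000000 (percentile 88.9) and a fold over input of 4.36. A second lay 41.9 kb downstream of its 5′ end, 6 bp from the TSS of Ttc33, with 18.5 tags per 10000000. Both were listed with more tags than the Prkaa2 peak, although the interval of the first (14.6 to 27.3 per 10000000) meets that of Prkaa2 (6.07 to 15.2). The 5′ end of Prkaa1 was nevertheless the richest in CpG of the 10 genes, with 77 CpG in 500 bp, more than in 98.7% of protein-coding genes.

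Of the scaffold beta subunits, Prkab1 (ENSMUSG00000029513.14, chromosome 5, 116013586 to 116024508, minus strand) had a peak whose centre was 367 bp upstream of the first TSS, and the peak ended 127 bp before it, so it too was intergenic. The signal was 15.9 tags per 10000000 (33.0 tags, interval 22.7 to 46.4), at percentile 62.9, with a fold over input of 10.28 and over the surrounding region of 4.99. Prkab2 (ENSMUSG00000038205.12, chromosome 3, 97658193 to 97673812, plus strand) had none. Its nearest peak, 48.1 kb upstream and 127 bp from a TSS of the chromatin remodeller gene Chd1l, had 21.4 tags per 10000000 and stood 8.81-fold over the surrounding region, at percentile 98.6.

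Of the gamma subunits, which bind AMP and ATP, Prkag2 (ENSMUSG00000028944.14, chromosome 5, 24862744 to 25100642, minus strand) had a peak from 24908465 to 24908945. It lay in an intron, 192 kb downstream of the 5′ end of this 238 kb gene, and 0 peaks lay within 50 kb of that 5′ end. The centre was 196 bp upstream of an internal protein-coding TSS at 24908509, and other annotated starts lay 236 bp downstream of the centre and 272 bp upstream of it. The peak is therefore at the start of shorter Prkag2 transcripts and not at that of the longest. Its signal was 15.7 tags per 10000000 (32.6 tags, interval 22.4 to 45.9), at percentile 61.1, and its fold over input was 10.12. At the start nearest to the peak the 500 bp window had 69 CpG, against 33 at the 5′ end of the gene. The next peak, 258 kb downstream of the 5′ end, was 431 bp upstream of the TSS of Rheb, which encodes an activator of mTORC1. Prkag1 (ENSMUSG00000067713.7, chromosome 15, 98812797 to 98831521, minus strand) had no peak, and its nearest, 40.5 kb upstream, had 28.9 tags per 10000000 (percentile 99.3).

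**Figure D2:**
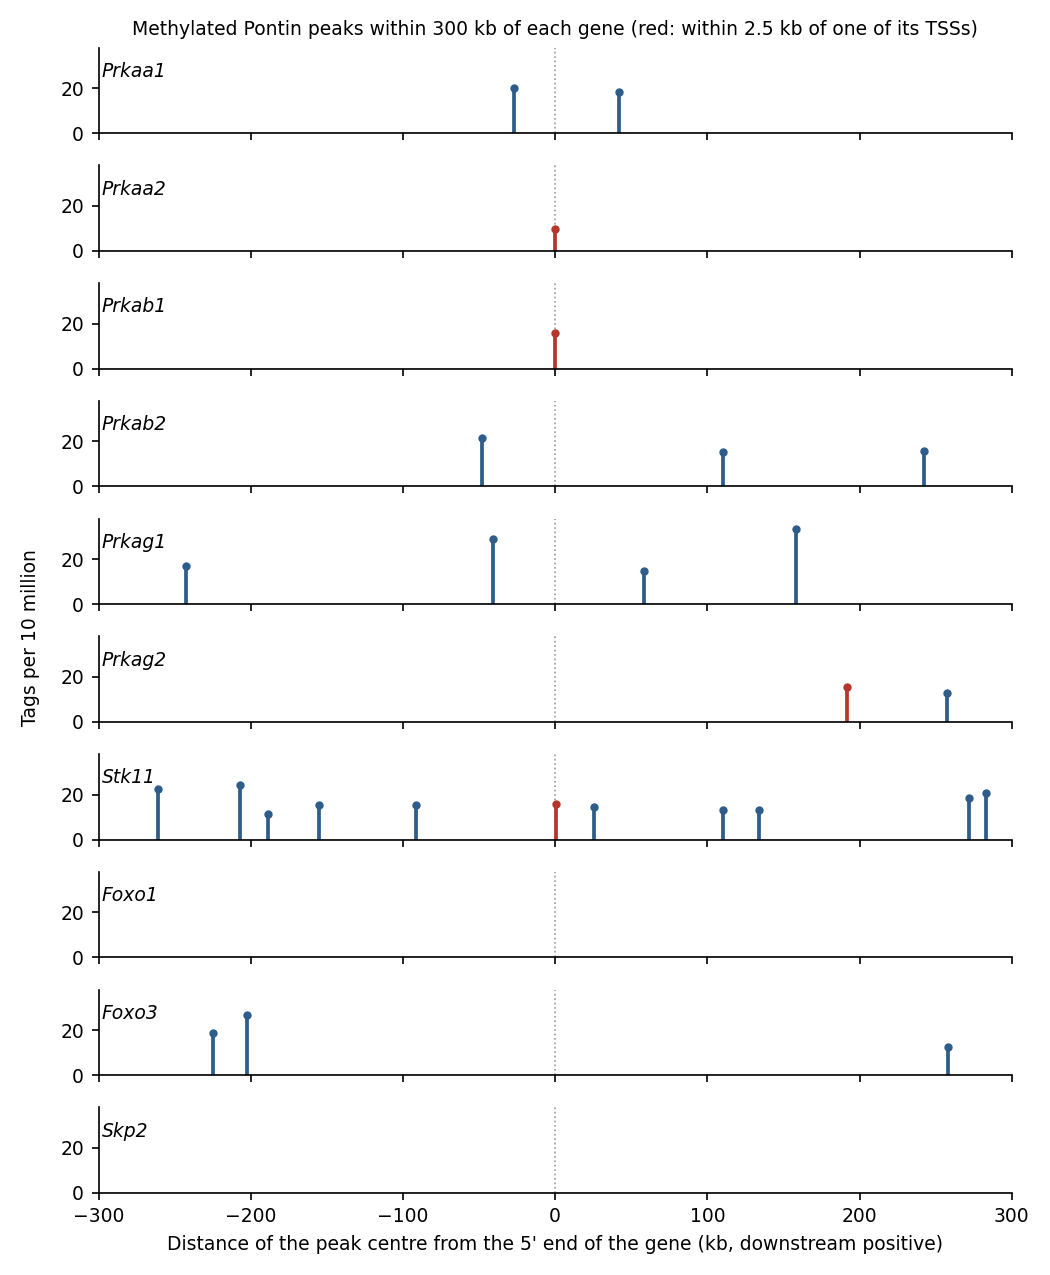
Peaks within 300 kb of the 5′ end of each gene, with distance along the gene's strand on the x axis (kb) and the tag count per 10000000 tags on the y axis. Red marks the peak within 2.5 kb of a TSS of the gene, which for Prkag2 stands 192 kb downstream of the 5′ end, and blue marks other peaks. Stk11 has 11 peaks in its window, whereas the windows of Foxo1 and Skp2 are empty.

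Stk11 (ENSMUSG00000003068.16, chromosome 10, 80115803 to 80130682, plus strand) was the only one of the 10 genes with a peak just downstream of its first TSS, inside the gene. The peak ran from 80115812 to 80116292, which is 9 to 489 bp downstream of the first TSS, and its centre was in the 5′ UTR, 249 bp downstream. Its signal was 15.9 tags per 10000000 (33.0 tags, interval 22.7 to 46.4), the same value as at Prkab1, but its fold over input was 20.56 against 10.28. The input behind it was 0.773 tags per 10000000, against 1.55 at Prkab1, and both values stand for very few tags. Its fold over the surrounding region was 4.73. The peak had 77 CpG, more than 99.7% of all peaks. It also lay in the most crowded region of the 10, with 15 peaks within 500 kb, against 0 to 4 for the other genes, and the nearest of them was 25.4 kb away near the TSS of Atp5d, a subunit gene of the ATP synthase.

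Because the Stk11 peak covers the 5′ UTR, only 30 bases are shown around each of 2 motif matches, on the plus strand. The first, at chr10:80116035-80116064, holds CCGGAAG (the core of ETS family sites) in capitals, 3 bp from the peak centre. The second, at chr10:80115800-80115829, holds GTAAACA (the FOXO core) in capitals.
Stk11 ETS: cccctcggtccCCGGAAGatttcctgtccg
Stk11 FOXO: ggcgcagggcgGTAAACAagatggcggcgg
The GTAAACA stands at 80115811 to 80115817, 8 bases after the first annotated TSS and 238 bases from the peak centre. Of its 7 bases, 6 lie inside the peak and 1 outside, so the peak was not counted as holding it. Its last base is also the first of AAGATGG, the core of YY1 sites.

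**Figure D3:**
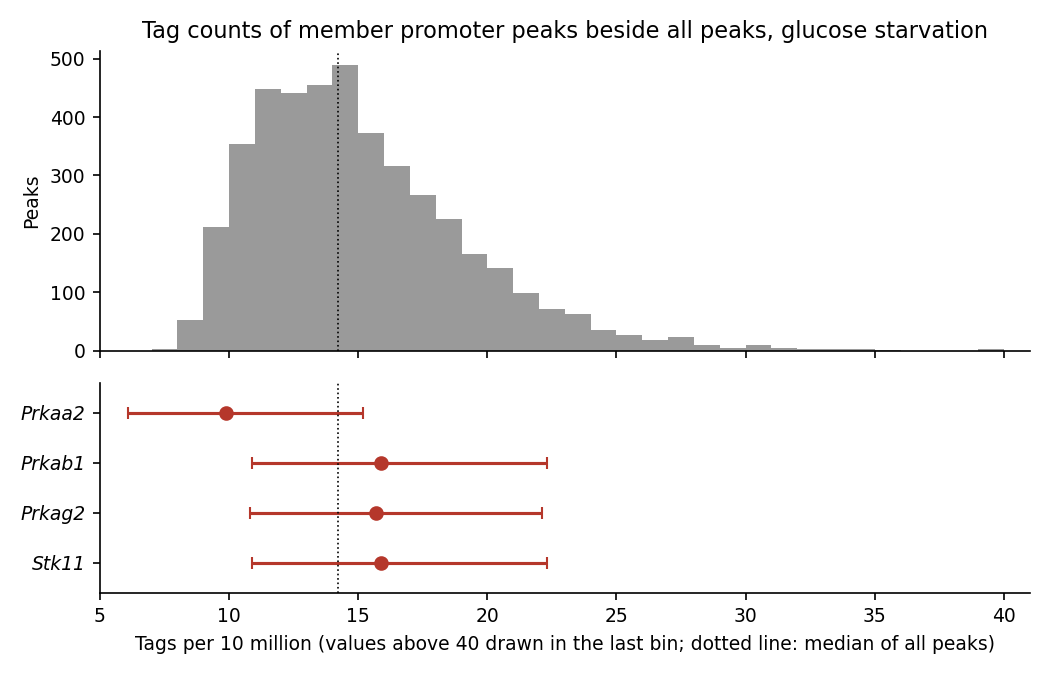
Tag count per 10000000 tags (x axis), as a histogram of all 4311 peaks (upper panel, values above 40 in the last bin) and for the peaks of the 4 genes with exact 95% Poisson intervals as bars (lower panel); the dotted line is the median of all peaks, 14.2. The interval of Prkaa2 (6.07 to 15.2) overlaps those of Prkab1, Prkag2 and Stk11 (10.8 to 22.3), so their order cannot be read from 1 library.

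The 4 peaks can be set beside all peaks. Their tag counts ran from 9.87 to 15.9 per 10000000 with a median of 15.8, close to the median of all peaks, 14.2. Prkab1, Prkag2 and Stk11 were almost equal, and Prkaa2 was lower. The intervals of all 4 overlapped, so that Prkaa2 was not separable from the others at this depth. Folds over the surrounding region were between 4.73 and 4.99, near the median of all peaks, 4.93, and not far above the authors' limit of 4-fold. Folds over input were more spread, from 10.12 to 25.54, with a median of 15.42 against 8.81 over all peaks. The 2 highest, at Prkaa2 and Stk11, were those with the lowest input. Implied input at the 4 peaks was 0.386 to 1.55 tags per 10000000, so each fold rests on very few input tags. The Poisson intervals cover the ChIP tags and not the input, and the spread of these folds was not tested.

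**Figure D4:**
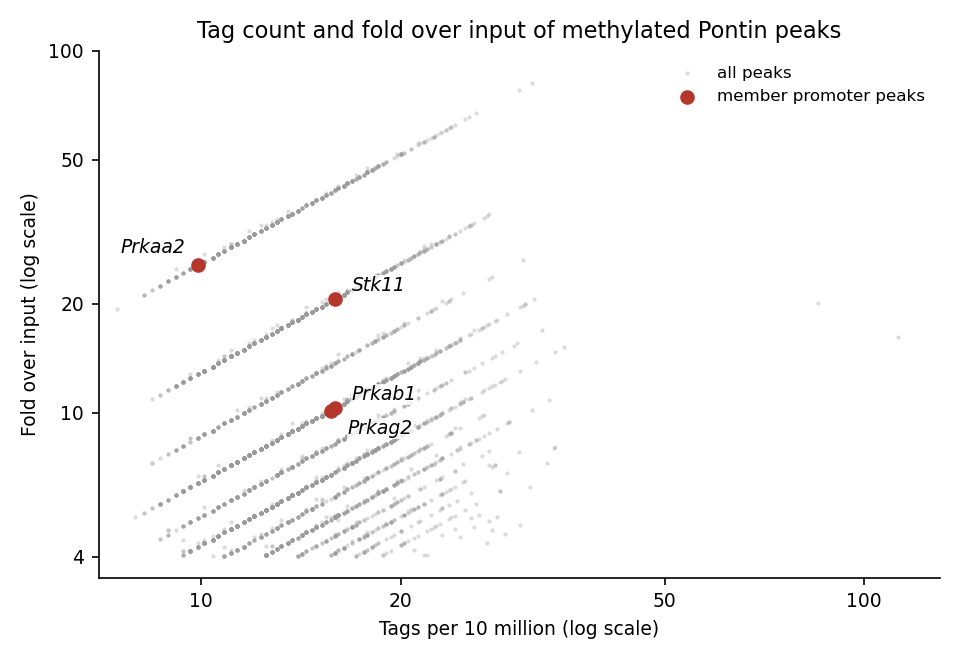
Tag count per 10000000 tags (x axis) against fold over input (y axis), both on log scales, for all peaks in grey and the 4 peaks of the genes in red. The grey points fall along lines of equal implied input, and Prkaa2 (0.386 tags per 10000000) lies on one of the lowest, with fewer tags than Prkab1, Prkag2 and Stk11 but the highest fold of the 4.

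The FOXO genes had no peak within 2.5 kb of a TSS or in the gene body. Foxo1 (ENSMUSG00000044167.6, chromosome 3, 52268336 to 52353221, plus strand) was 325 kb from its nearest peak, which lay in an intron of Maml3 with 10.8 tags per 10000000 (percentile 12.4). Foxo3 (ENSMUSG00000048756.11, chromosome 10, 42181841 to 42276755, minus strand) was 202 kb from its nearest, 398 bp upstream of the TSS of Afg1l. That peak was a strong one, with 26.5 tags per 10000000 (percentile 98.3) and a fold over input of 17.13. A nearest peak more than 100 kb away was found for 47.3% of protein-coding genes, and for Foxo1, Foxo3 and Skp2 among the 10. Both FOXO 5′ ends were CpG-rich, with 62 CpG in 500 bp at Foxo1 and 59 at Foxo3, against a median of 39 among genes that did have a peak.

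Skp2 (ENSMUSG00000054115.11, chromosome 15, 9111985 to 9155425, minus strand) was the farthest of the 10 from any peak. The nearest lay 1.21 Mb away in an intron of Wdr70, with 13.0 tags per 10000000 and a fold over input of 4.21, just above the limit, and 0 peaks lay within 1 Mb of the 5′ end. A nearest peak more than 1 Mb away was found for 9.10% of protein-coding genes. Skp2 starts at 2 places, an upstream start with 3 CpG in 500 bp and a downstream start with 36. The downstream start is divergent with Lmbrd2, whose TSS is 111 bp from a Skp2 TSS.

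Stretches before 2 of the starts without a peak are shown for comparison, from the RefSeq promoters (GRCm38) and outside exons, on the minus strand. They are the downstream start of Skp2, chr15:9140455-9140549, and Foxo3, chr10:42276756-42276945. Capitals mark the SP core and, at Foxo3, TTCCCGC, which is the E2F core GCGGGAA on the other strand.
Skp2: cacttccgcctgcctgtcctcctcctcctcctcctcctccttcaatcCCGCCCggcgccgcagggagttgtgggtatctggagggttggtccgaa
Foxo3: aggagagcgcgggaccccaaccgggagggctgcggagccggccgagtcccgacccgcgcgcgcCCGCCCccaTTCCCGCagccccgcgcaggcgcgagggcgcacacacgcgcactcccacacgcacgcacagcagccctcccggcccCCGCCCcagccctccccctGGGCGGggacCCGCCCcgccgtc
The Foxo3 stretch holds 4 SP cores and the Skp2 stretch 1. Both starts were picked after their values were seen. The SP core was in 10 of the 13 RefSeq promoters that matched the 10 genes, against 35.7% of all promoters. Whether it bears on the presence of a peak was not tested.

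Motifs were counted as exact letters on either strand, and a match is a description only. GTAAACA was found in 0 of the 4 peaks of these genes, against 5.08% of all peaks and 3.65% of 32851 RefSeq promoters of 300 bases. The peaks are 481 bp wide, and a longer sequence holds more matches. Shares of peaks and of promoters here are therefore not on equal lengths, and a higher share in peaks is not an enrichment. In the central 200 bp of the peaks the share with GTAAACA was 2.04%. With 4 forms of the FOXO core (GTAAACA or GTAAATA or ATAAACA or ATAAATA) the count was still 0 of 4, against 864 of the 4311 peaks. A count over 4 peaks gives no share of its own, and nothing about FOXO3a follows from it. GCGGGAA (E2F, 9.26% of peaks and 4.60% of promoters), TCACGTG (the E-box, 5.73% and 3.77%), TGACGTC (the cAMP response element, 3.71% and 3.21%) and GCGCATG (NRF1, 5.17% and 3.91%) were also in 0 of 4. GGGCGG was in 3 of 4 (Prkaa2, Prkag2 and Stk11), against 43.3% of peaks and 35.7% of promoters. AAGATGG was in 2 of 4 (Prkaa2 and Stk11), against 11.5% and 6.34%. CCGGAAG was in 1 of 4 (Stk11), against 15.3% and 8.86%. RefSeq promoters matched all 10 genes with 13 windows, of which 1, that of Stk11, held GTAAACA. With the 4 forms it was 3 of 13, at Prkag1, Prkag2 and Stk11, against 15.0% of all promoters.

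Other genes of these pathways were taken as a list of 62. A peak lay within 2.5 kb of a TSS at 15 of them (24.2%), against the 17.2% of all protein-coding genes, with tag counts of 11.1 to 27.0 per 10000000. Of 12 further kinases that LKB1 phosphorylates, 3 had a peak. Nuak1 had 20.2 tags per 10000000 and a fold over input of 52.33, with the same low implied input as Prkaa2 (0.386 tags per 10000000). Snrk had 11.8 tags per 10000000 and Sik1 11.6. Of 9 targets and feedback genes of AMPK, 3 had one, namely Flcn with 19.5 tags per 10000000, Tsc2 with 16.9 and Rptor with 16.6. Of 8 partners of AMPK and LKB1, with the gamma subunit gene Prkag3 counted among them, 1 had a peak. It was Map3k7 with 14.0, which encodes the kinase TAK1.

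Among 12 FOXO family members and regulators, 5 had a peak. The 4 with the most tags were Ep300 with 27.0 tags per 10000000, Mdm2 with 15.7, Sirt1 with 12.5 and Crebbp with 11.8. Ep300 and Crebbp encode acetyltransferases and Sirt1 a deacetylase, all of which act on FOXO proteins. Ep300 had the most tags of the 15 genes but a fold over input of only 4.36. Among 13 FOXO target genes, 1 had a peak, Bbc3 with 11.1, whose centre was 1497 bp from a TSS. A group of 8 genes was listed for the SKP2 ligase. It also holds genes that are not parts of that ligase, namely Cand1 and the other F-box genes Fbxo4, Btrc and Fbxw7. Of the 8, 2 had a peak, the scaffold gene Cul1 with 17.8 and the adaptor gene Skp1a with 15.9. Peaks at Nuak1, Tsc2, Flcn and Cul1 lay nearer to a TSS of another annotated gene than to that of the gene named.

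**Figure D5:**
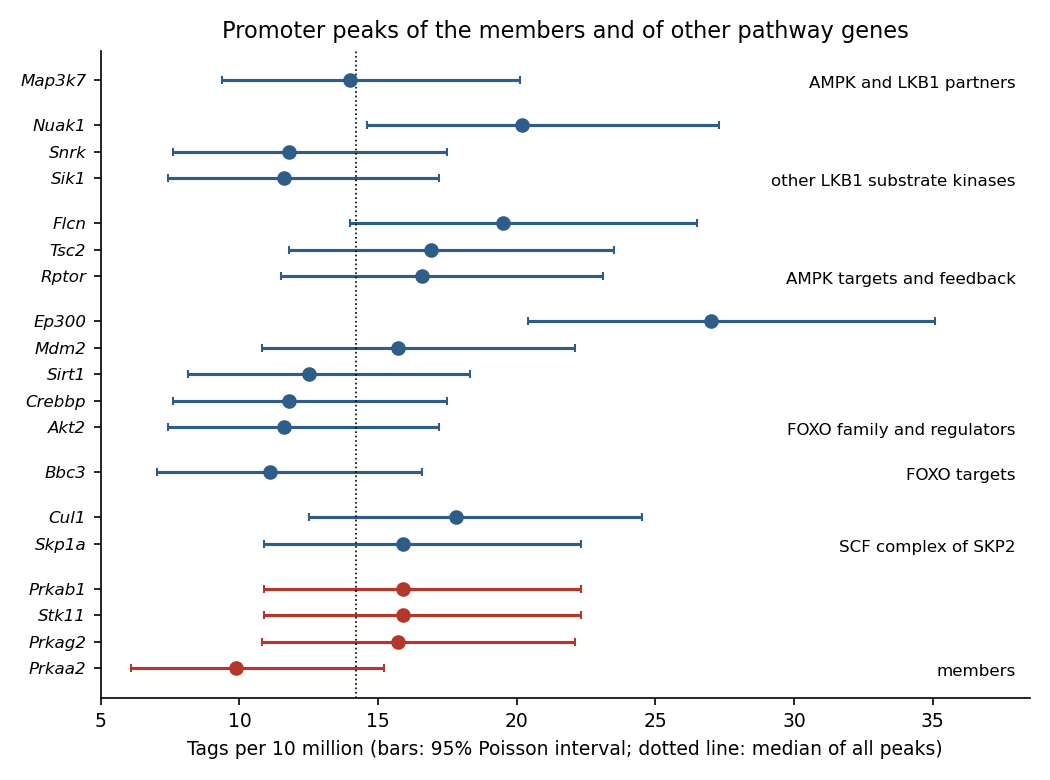
Tag count per 10000000 tags (x axis) with exact 95% Poisson intervals for the 15 pathway genes with such a peak, by group in blue, beside the 4 AMPK and LKB1 genes in red, with the median of all peaks (14.2) as a dotted line. The counts run from 9.87 at Prkaa2 to 27.0 at Ep300, whose intervals (6.07 to 15.2 and 20.4 to 35.1) do not overlap.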

How the data were processed

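Reads of the 4 MEF libraries were aligned by the authors to GRCm38 with Bowtie2, and peaks were called with HOMER 4.7.2 against an input library, as the submitters' processing notes and the file header give it. The study's methods call it the control input and the file header INplus, wording that can be read as either of the 2 inputs. Implied inputs at the nearest peaks of the 10 genes lie close to multiples of 0.386 tags per 10000000. That spacing matches the depth the study lists for the glucose-starvation input, and not the depth for normal media. The glucose-starvation input was therefore the likely control, and every fold over input rests on it. The deposited signal is the tag count of a peak per 10000000 tags, and the deposited score is HOMER's own. The deposited file also gives 2 ratios, the fold of the ChIP above input and its fold above the neighbouring 10 kb, each with the authors' Poisson p-value. Per the file header, the limits were a false discovery rate of 0.001 (tag threshold 18), 4-fold and a p-value of 0.0001 for both comparisons, and weaker regions are out of reach here. A further 4 columns of values were left unused.

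Distances join each peak's centre with the closest TSS among all GENCODE vM21 transcripts. Tags were recovered as the signal times the library total, and their exact 95% Poisson intervals were computed. Implied input is the signal over the fold. With 1 library, no test was made. All 10 genes are named with their nearest peak, as are genes whose TSS was nearest to a peak of theirs, and of the pathway list up to 4 genes per group with the highest tag counts. Genes beside the nearest peaks, the peaks sharing a TSS and the 2 starts shown for comparison were chosen after their values were seen. The members and lists were chosen with earlier results of these data known. Scripts were tested on simulated data. The versions were pysam 0.24.0, SciPy 1.17.1, Python 3.11.15, pandas 2.3.3, matplotlib 3.10.9 and NumPy 2.4.6. The sequence under the Prkab1 peak, and 1 motif count that rests on it, are not reported here.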

Additional observations from a re-analysis of the deposited data

How the results depend on the processing

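The count of 4 genes with a peak was 4 with limits of 1 kb and 5 kb, with protein-coding transcripts, with peaks at least 8-fold over input (2412 peaks) and from the peak edge. It was 3 with the 5′ end of each gene alone, where Prkag2 was lost because its peak is 192 kb away, and 2 among peaks scoring above the median (2145 peaks), where Prkab1 and Prkag2 remained. Stk11 was lost there because its score, 26.0, equals the median, and only higher scores were kept. The genes with a gene body peak were then 1, and the median distance to the nearest peak rose from 33.8 to 69.7 kb. The share of protein-coding genes with a peak was 16.3% at 1 kb, 18.3% at 5 kb, 16.7% with protein-coding transcripts, 15.8% with the 5′ end alone, 10% at 8-fold and 9.61% above the median score. Pathway genes with a peak fell from 15 to 9 at 8-fold and 8 above the median score. At 8-fold the nearest peak of Prkaa1 was 6380 kb and that of Skp2 2370 kb away, and above the median score that of Prkaa2 was 1210 kb, of Foxo1 785 kb and of Stk11 91.2 kb away. Ranked by fold over input, Prkaa2 was at percentile 88.1 in place of 4.66. Fewer peaks in the stricter sets account for the lower counts by construction. No paired analysis was possible because no group held more than 1 library, and no replicate could be left out. Counting error alone lets the percentile of Prkaa2 range from 0 to 56.9.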
